A study of Rattus norvegicus with 18 samples.

Results

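The serotonin receptor genes Htr1a, Htr1b, Htr1d, Htr1f, Htr2a, Htr2c, Htr3a, Htr4, Htr6 and Htr7 were followed in the prefrontal cortex (PFC) of rat pups exposed to oxycodone (oxy), an opioid pain medicine, through their dams. These are 10 of the 32623 genes listed for each pup and were taken by gene symbol. RNA-seq had been run on 18 Sprague Dawley pups at postnatal day 14, with 6 pups in each of 3 groups. Dams of the SAL pups received saline by oral gavage. Dams of the PNO pups received oxy at 15 mg/kg/day by gavage from parturition on, so that exposure was postnatal. Dams of the IUO pups received 10 mg/kg/day for 5 days, then a daily increase of 0.5 mg/kg/day for 10 days up to 15 mg/kg/day, and were then mated with dosing kept up through gestation and nursing, so that these pups were exposed in utero and after birth. The drug was given to the dams, and the labels do not tie pups to dams, litters or sexes. P-values therefore measure the spread between pups, some of which may share a dam.

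Serotonin reaches the cortex through axons of neurons in the raphe nuclei of the brainstem, and its effect on a cell depends on the receptors that the cell carries. Receptors of the 5-HT1 family act through Gi/o proteins and lower cAMP, those of the 5-HT2 family act through Gq and phospholipase C, and 5-HT4, 5-HT6 and 5-HT7 act through Gs and raise cAMP. 5-HT3 receptors differ from all of these in being ion channels opened by serotonin. In the cortex, 5-HT2A is known from pyramidal neurons and 5-HT3A from a class of interneurons. 5-HT2C is also very abundant in the choroid plexus, and 5-HT6 is abundant in the striatum.

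Promoter sequences were taken from RefSeq on the rat build GRCr8, where 6 of the 10 receptor genes had an entry, and the 250 bases before the start site of that entry are shown. For Htr2c and Htr6 this window ends where the RefSeq gene begins, and for Htr7 and Drd1 it lies inside the gene's span, so a start site further upstream is also annotated. Htr2c is shown because it had the highest level of the receptor genes, and Htr6 and Htr7 because each followed a marker set of another brain region across pups. Drd1, a dopamine receptor gene of striatal neurons and no serotonin receptor, is shown because it was among the genes whose pattern over the pups was most like that of Htr6. Capitals mark matches on either strand to the letters GGGCGG of a GC box, CCAAT of a CCAAT box, TATAAA of a TATA box, TGACGTCA of a cAMP response element or CANNTG of an E box.
Htr2c: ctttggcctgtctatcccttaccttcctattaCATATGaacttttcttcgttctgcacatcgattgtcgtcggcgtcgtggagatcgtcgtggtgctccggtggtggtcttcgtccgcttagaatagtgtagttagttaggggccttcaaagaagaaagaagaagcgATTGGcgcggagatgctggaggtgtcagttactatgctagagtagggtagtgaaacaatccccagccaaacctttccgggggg
Htr6: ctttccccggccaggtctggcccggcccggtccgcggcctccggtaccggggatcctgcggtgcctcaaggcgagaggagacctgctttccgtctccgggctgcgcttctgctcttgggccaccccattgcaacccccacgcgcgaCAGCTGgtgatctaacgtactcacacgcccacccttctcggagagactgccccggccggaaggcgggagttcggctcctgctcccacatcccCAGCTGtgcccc
Drd1: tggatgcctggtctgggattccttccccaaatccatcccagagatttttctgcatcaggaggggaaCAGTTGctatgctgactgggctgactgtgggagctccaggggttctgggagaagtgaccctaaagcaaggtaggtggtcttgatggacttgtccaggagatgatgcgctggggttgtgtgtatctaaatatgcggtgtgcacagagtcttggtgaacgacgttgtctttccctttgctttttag
Htr7: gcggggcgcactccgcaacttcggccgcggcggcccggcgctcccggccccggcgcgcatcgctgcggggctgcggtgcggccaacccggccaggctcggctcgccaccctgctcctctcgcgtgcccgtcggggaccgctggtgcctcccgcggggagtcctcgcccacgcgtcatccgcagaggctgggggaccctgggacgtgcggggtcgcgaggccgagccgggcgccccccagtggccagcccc
The Htr2c sequence is chrX:115452940-115453189 on the plus strand, with a GC content of 50.4%, and holds 1 E box and 1 CCAAT box, read on the opposite strand as ATTGG. The Htr6 sequence is chr5:156595148-156595397 on the minus strand, with a GC content of 69.2% and 2 E boxes of the form CAGCTG. The Drd1 sequence is chr17:10546354-10546603 on the plus strand, with a GC content of 51.2% and 1 E box. The Htr7 sequence is chr1:243173049-243173298 on the minus strand, with a GC content of 80.8%, and none of the letters searched occur in it. Over 33469 rat promoter windows of the same length, the median GC content was 51.2%. An E box was present in 65.5% of them, a CCAAT box in 34.0%, a GC box in 30.5%, a TATA box in 12.9% and a cAMP response element in 1.59%. E boxes were thus found both in Htr6 and Drd1 and in most promoters.

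Total expected counts lay between 18381819 and 26084780 per pup. The cortical excitatory gene Slc17a7 was present in every pup at 501 to 1073 TPM (a level scaled to gene length and to the total of the pup). Tph2 and Slc6a4, which mark serotonin neurons, were high in 3 libraries, SAL replicate 4, PNO replicate 4 and PNO replicate 6. Tph2, the enzyme of serotonin synthesis in the brain, was at 55.4, 30.7 and 53.0 TPM in these and at 1.40 to 4.72 TPM in the other 15 pups. Slc6a4, the serotonin transporter, was at 75.5, 32.4 and 61.7 TPM in the same libraries and at 0.180 to 3.98 TPM in the others. Both genes are known from serotonin neuron cell bodies of the brainstem, and fits of the receptor genes without these libraries are given beside the results they moved. Gata3, a transcription factor gene on the same marker list, was at 4.05 to 6.17 CPM (counts scaled to the TMM-normalized library total) in the 3 libraries and also in SAL replicate 2 and PNO replicate 5, and at 0.492 CPM or less in the other 13. In bulk tissue, fewer cells of a type and less RNA per cell cannot be told apart.

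On the TPM scale Htr2c stood above all others with a mean of 35.6 ± 16.5 TPM (SD, n = 18 pups). Htr2a followed at 9.78 ± 3.73 TPM, then Htr1b at 7.75 ± 2.87, Htr7 at 5.83 ± 1.69, Htr3a at 4.91 ± 1.32, Htr6 at 4.29 ± 2.49 and Htr1a at 4.0 ± 1.59. The lowest levels were those of Htr1f at 1.41 ± 1.01 TPM, Htr1d at 1.27 ± 0.816 and Htr4 at 0.574 ± 0.632. Neighbours in this order were compared within pups by an exact two-sided sign-flip permutation test of the log2 ratio, adjusted over 9 pairs. Htr2c was above Htr2a in 17 of 18 pups, with a mean log2 ratio of 1.79 ± 1.05 (SD) and an adjusted p of 0.000103 in this exact test. Htr2a was above Htr1b in 14 of 18 pups (exact test, adjusted p = 0.0137), and Htr1b was above Htr7 in 13 of 18 (exact test, adjusted p = 0.0249). Htr1a was above Htr1f in 17 pups (exact test, adjusted p = 0.000103) and Htr1d was above Htr4 in 13 pups (exact test, adjusted p = 0.00137). Between Htr7 and Htr3a, Htr3a and Htr6, Htr6 and Htr1a, and Htr1f and Htr1d the exact test gave adjusted p-values of 0.0632, 0.118, 0.875 and 0.511, so that their order was not resolved against the spread.

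Htr2c made up between 20.1% and 61.0% of the summed TPM of the 10 genes, with a median of 47.2%. The sum itself ran from 42.9 to 114 TPM per pup. The lowest share of Htr2c was in SAL replicate 5, where Htr2c was at 10.1 TPM and Htr2a at 14.6 TPM, the single pup in which Htr2a was the higher of the pair. In the order of mean TPM, Htr6 was at rank 7 in SAL (3.71 TPM) and in PNO (3.03 TPM) and at rank 4 in IUO (6.13 TPM). That shift in rank is a description, and the test of the Htr6 levels is given with the Gs-coupled receptors.

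**Figure D1:**
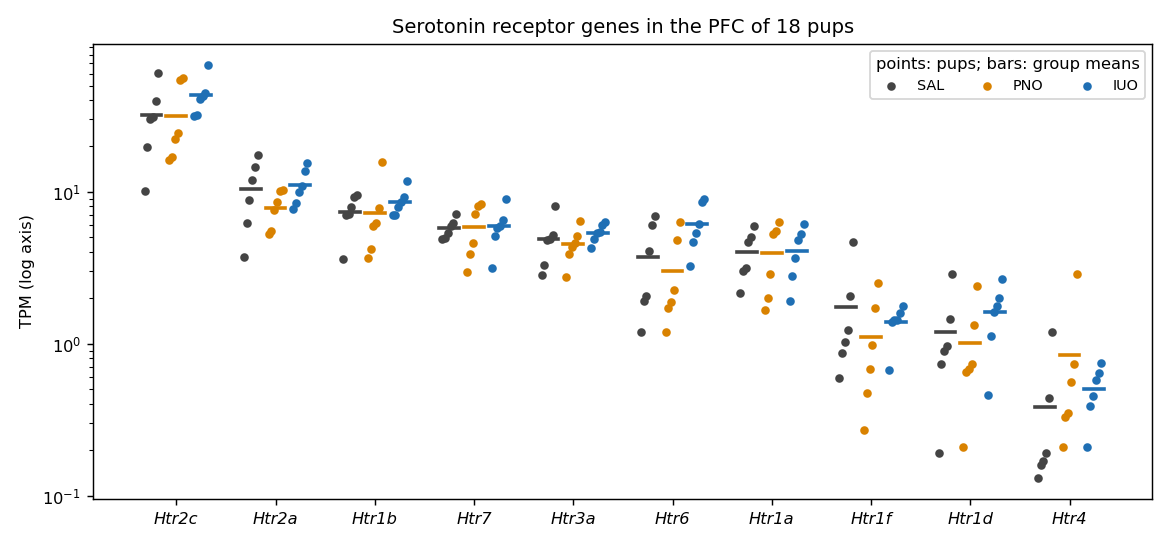
TPM on a log axis for each of the 10 receptor genes in each pup, with genes ordered by mean TPM, points for pups (6 per group, coloured by group) and bars for group means. Htr2c lies highest at 10.1 to 68.6 TPM, Htr4 lowest at 0.130 to 2.86 TPM, and the 3 groups overlap for every gene.

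Of the 10 receptor genes, 9 passed the filter on low counts and were tested with edgeR, and Htr4 did not pass. In edgeR, 0 of the 9 passed an adjusted p of 0.05 in PNO against SAL, where 0% of the 15703 genes tested did so, in IUO against SAL, where again 0% did, or in IUO against PNO, where 0.0637% did. At an unadjusted p of 0.05 the count for edgeR was also 0 of 9 in each comparison, beside 4.50%, 6.88% and 15.3% of all genes. At an adjusted p of 0.05, DESeq2 gave 0 receptor genes in each comparison, beside 0.00637%, 0.312% and 2.78% of all genes. limma-voom gave 0, 0 and 1 (Htr6 in IUO against PNO), beside 0%, 0.274% and 12.9% of all genes, and 1 of 9 is near that last share. Without the 3 libraries high in Tph2 and Slc6a4, edgeR again gave 0 receptor genes at an adjusted or an unadjusted p of 0.05. The CPM values of the groups overlapped for all 10 genes in all 3 comparisons, beside 0.108%, 0.745% and 1.66% of tested genes whose groups did not overlap. The median log2 fold change of the 9 genes was -0.02 in PNO against SAL (0.00 over all genes), 0.15 in IUO against SAL (-0.01 over all genes) and 0.24 in IUO against PNO (0.00 over all genes). Fold changes were above 0 for 4, 8 and 8 of the 9 genes, beside 50.8%, 48% and 49.9% of all genes, and below 0 for 5, 1 and 1, beside 49.2%, 52% and 50.1%. The last pair of comparisons share the IUO pups, so their signs are not independent of each other.

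**Figure D2:**
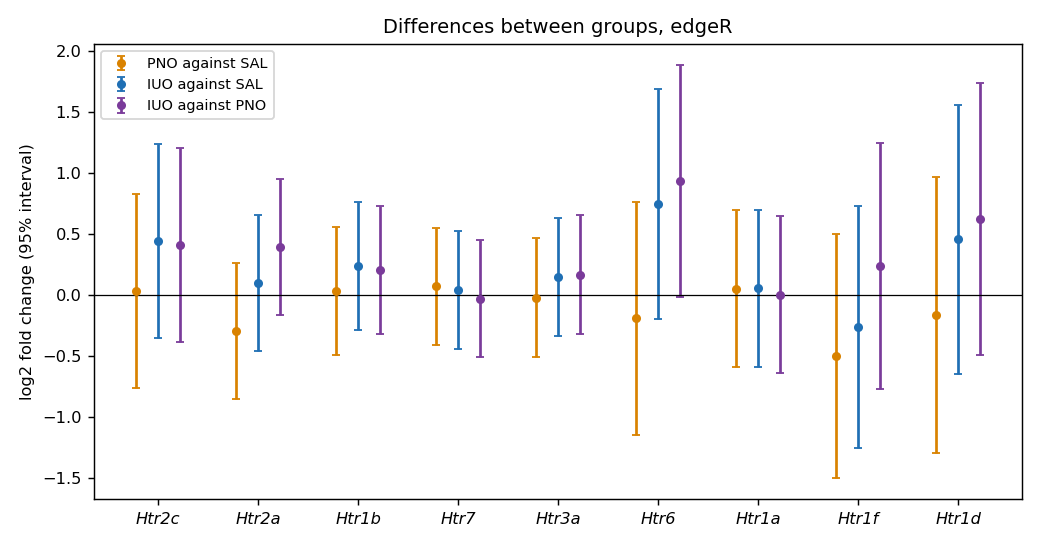
edgeR log2 fold changes of the 9 tested receptor genes (points) with 95% intervals (lines) for each of the 3 comparisons (coloured). Every interval includes 0, and that of Htr6 in IUO against PNO reaches 0 most narrowly, from -0.02 to 1.89.

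The Gi/o-coupled receptors were Htr1a, Htr1b, Htr1d and Htr1f. Htr1a encodes the autoreceptor of serotonin neuron cell bodies, which is also a receptor of cortical neurons. In CPM, its lowest, median and highest values were 1.94, 2.93 and 3.75 in SAL, 1.41, 3.17 and 4.26 in PNO, and 1.45, 3.21 and 4.18 in IUO. The 3 groups covered nearly the same range, and the edgeR log2 fold changes were 0.05 (SE 0.30, adjusted p = 0.980), 0.06 (SE 0.30, adjusted p = 0.996) and 0.00 (SE 0.30, adjusted p = 0.997) for PNO over SAL, IUO over SAL and IUO over PNO, in that order. The 95% interval of the difference between IUO and SAL ran from -0.59 to 0.70, which leaves room for a change of this size in either direction.

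Htr1b encodes the autoreceptor of serotonin axon terminals, which also sits on the terminals of other neurons. Its CPM was 3.97, 6.92 and 8.34 (lowest, median, highest) in SAL, 3.82, 5.62 and 12.9 in PNO, and 6.54, 7.63 and 9.85 in IUO. The lowest pups were PNO replicate 4 and SAL replicate 4, both among the 3 libraries with serotonin neuron transcripts, and the highest was PNO replicate 1, at 342 counts. The log2 fold change in edgeR was 0.24 (SE 0.25, adjusted p = 0.974) in IUO against SAL and 0.20 (SE 0.25, adjusted p = 0.710) in IUO against PNO. Without PNO replicate 1 the value for IUO against PNO was 0.49 (edgeR adjusted p = 0.185), and that for PNO against SAL went from 0.03 to -0.26 (edgeR adjusted p = 0.586). With all pups kept, the difference of mean log2 CPM between PNO and SAL was -0.06, so the direction was not settled. Without the 3 libraries high in Tph2 and Slc6a4, Htr1b was at 0.12 (SE 0.22, edgeR adjusted p = 1.00) in IUO against SAL and at 0.01 (SE 0.23, edgeR adjusted p = 0.990) in IUO against PNO.

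Htr1d and Htr1f encode further Gi/o-coupled receptors, known as targets of the triptan drugs, and both were rare in these libraries. Htr1d was counted 3 to 39 times per pup. Its CPM was 0.126, 0.586 and 1.83 in SAL, 0.158, 0.505 and 1.43 in PNO, and 0.307, 1.05 and 1.82 in IUO. The median of IUO was above the others, but SAL replicate 1 and IUO replicate 2 shared the top of the range. edgeR gave log2 fold changes of 0.46 (SE 0.52, adjusted p = 0.974) in IUO against SAL and 0.62 (SE 0.52, adjusted p = 0.586) in IUO against PNO. Htr1f was counted 4 to 80 times per pup, with 0.587, 0.948 and 3.30 CPM in SAL, 0.213, 0.779 and 1.88 in PNO, and 0.569, 1.20 and 1.34 in IUO. Its highest pup was SAL replicate 6, and without it the log2 fold change of IUO against SAL went from -0.26 (SE 0.46, edgeR adjusted p = 0.996) to 0.22 (SE 0.43, edgeR adjusted p = 0.864).

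The Gq-coupled receptors Htr2a and Htr2c were the 2 most abundant members on the TPM scale. Htr2a, the cortical receptor through which classical hallucinogens act, was at 12.7, 29.1 and 42.6 CPM in SAL, 16.2, 24.1 and 32.6 in PNO, and 22.3, 29.5 and 40.1 in IUO. Its 4 lowest pups were SAL replicate 4 (12.7), PNO replicate 6 (16.2), SAL replicate 2 (17.5) and PNO replicate 4 (18.0), which include all 3 libraries with serotonin neuron transcripts. edgeR gave -0.29 (SE 0.26, adjusted p = 0.912) in PNO against SAL, 0.10 (SE 0.26, adjusted p = 0.996) in IUO against SAL, and a difference of 0.39 (SE 0.26, adjusted p = 0.490) when IUO was set against PNO. Without these 3 libraries the values were -0.27 (SE 0.24, edgeR adjusted p = 0.915), -0.06 (SE 0.22, edgeR adjusted p = 1.00) and 0.21 (SE 0.23, edgeR adjusted p = 0.783), so that IUO against SAL changed sign.

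Htr2c was counted 668 to 3899 times per pup and was the best measured of the 10 genes. Its CPM was 28.0, 90.4 and 156 in SAL, 49.5, 66.0 and 157 in PNO, and 77.8, 112.9 and 192 in IUO. All 6 IUO pups were above the lowest 2 SAL pups and the lowest 4 PNO pups, yet SAL replicate 1 and PNO replicate 6 were higher than 5 of the IUO pups. The mean was 85.9 ± 46.1 CPM in SAL, 87.8 ± 46.3 in PNO and 116.8 ± 41.0 in IUO (SD, n = 6 each). The edgeR log2 fold change was 0.03 (SE 0.37, adjusted p = 0.988) in PNO against SAL, 0.44 (SE 0.37, adjusted p = 0.929) in IUO against SAL and 0.41 (SE 0.37, adjusted p = 0.617) in IUO against PNO. The 95% interval for IUO against SAL, from -0.35 to 1.24, includes more than a doubling as well as no difference. In RefSeq the span of Htr2c holds 1 snoRNA gene and 5 miRNA genes, and the sources used here do not say whether counting used strand. A lncRNA gene overlaps the span of Htr4 and a pseudogene that of Htr7, so the same limit holds for them.

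Htr3a, the subunit of the serotonin-gated channel, had the smallest spread within groups of the 9 tested genes. Its CPM was 3.39, 5.64 and 9.32 in SAL, 3.77, 5.77 and 8.30 in PNO, and 5.01, 6.62 and 7.63 in IUO. The IUO pups lay inside the range of both other groups. edgeR log2 fold changes were -0.02 (SE 0.23, adjusted p = 0.988), 0.15 (SE 0.23, adjusted p = 0.990) and 0.17 (SE 0.23, adjusted p = 0.744), in the same order of comparisons.

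The Gs-coupled receptors were Htr4, Htr6 and Htr7. Htr6 showed the largest difference between IUO and PNO of the 9 tested receptor genes. Its CPM was 1.67, 3.52 and 7.73 in SAL, 1.57, 2.59 and 8.33 in PNO, and 3.81, 6.55 and 10.7 in IUO. The highest pups were IUO replicates 2 and 1 at 10.7 and 9.98 CPM, and PNO replicate 3, at 8.33 CPM, came next. The edgeR log2 fold change was 0.94 (SE 0.45, adjusted p = 0.328) in IUO against PNO, 0.75 (SE 0.44, adjusted p = 0.834) in IUO against SAL and -0.19 (SE 0.45, adjusted p = 0.948) in PNO against SAL. An exact two-sided permutation test of mean log2 CPM, over all 924 splits of 12 pups, gave p = 0.0368 for IUO against PNO and 0.678 after adjustment over the 30 tests of 10 genes and 3 comparisons. With limma-voom and sample weights the same difference was 1.30 (SE 0.42) with an adjusted p of 0.0494, while the adjusted p ranged from 0.0494 to 0.653 over 25 alternatives. Leaving out the 3 libraries with serotonin neuron transcripts gave 0.62 (SE 0.45, edgeR adjusted p = 0.653).

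Htr7, a receptor of thalamus and limbic areas, was at 9.31, 10.6 and 13.1 CPM in SAL, 6.39, 11.4 and 16.4 in PNO, and 6.11, 10.5 and 17.4 in IUO. SAL pups lay within a narrower range than the others. The medians differed little, and edgeR log2 fold changes were 0.07 (SE 0.23, adjusted p = 0.963), 0.04 (SE 0.23, adjusted p = 0.996) and -0.03 (SE 0.23, adjusted p = 0.959). The 95% interval of IUO against SAL ran from -0.44 to 0.52.

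Htr4, a receptor found in limbic structures and gut, was counted 2 to 16 times in 17 pups and 47 times in PNO replicate 1. Its CPM was 0.0824, 0.131 and 0.750 in SAL, 0.158, 0.348 and 1.77 in PNO, and 0.161, 0.350 and 0.569 in IUO. Medians of both exposed groups were above that of SAL, but SAL replicate 1 exceeded every IUO pup. Exact permutation tests gave p = 0.160 when PNO was set against SAL, 0.188 when IUO was set against SAL and 0.662 when the exposed groups were set against each other (0.678, 0.678 and 0.976 after adjustment over 30 tests). With so few counts, these tests did not separate the groups in Htr4. Where other settings let Htr4 pass the filter on low counts, the edgeR log2 fold change of PNO against SAL was 1.01 to 1.38, and the smallest adjusted p was 0.612.

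Within the groups, pups differed more in these receptor genes than in most genes. The within-group SD of log2 CPM was 0.91 for Htr1d, 0.82 for Htr6, 0.81 for Htr1f and 0.72 for Htr2c, beside a median of 0.25 over all genes tested. It was 0.56 for Htr1a, 0.50 for Htr2a, 0.44 for Htr1b, 0.42 for Htr7 and 0.41 for Htr3a. Htr1d was thus at the 96.1 percentile of spread among tested genes and Htr3a, the lowest of the 9, at the 73.4 percentile. Counting error differs between these genes, with a median of 14 counts per pup for Htr1d and 2071 for Htr2c.

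Markers of neighbouring tissues varied between pups as well, and some receptor genes varied with them. Summed TPM of 12 striatal neuron markers ran from 201 to 1556 in SAL, 199 to 1068 in PNO and 393 to 1745 in IUO, with medians of 302, 293 and 638. Drd1, the D1 dopamine receptor, ranged from 4.58 to 43.1 TPM. Summed TPM of 8 thalamic markers ran from 21.9 to 133 in SAL, 25.5 to 134 in PNO and 37.1 to 145 in IUO. Choroid plexus markers (12 genes) ran from 89.6 to 1508, 118 to 2871 and 92.7 to 716, and 12 cortical excitatory markers from 709 to 1505, 817 to 1285 and 787 to 1507. No list had a marker at 0 in all pups of a group. Scores were the mean log2 CPM of the tested markers, and 72 relations of 9 receptor genes with 8 scores were computed over the 18 pups and adjusted together.

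Htr6 followed the striatal markers closely. Pearson's r was 0.962 and Spearman's rho 0.955 over 18 pups, each with a permutation p of 1e-05, the smallest that 100000 permutations can give, and 0.00036 after adjustment. Without the 2 pups farthest from the median score r was 0.959, and within SAL, PNO and IUO it was 0.950, 0.981 and 0.944. The 6 pups with the most Htr6 were the 6 with the highest striatal score (IUO replicates 1, 2 and 4, SAL replicates 1 and 3 and PNO replicate 3), and the 6 with the least were the 6 with the lowest. The genes whose log2 CPM was most like Htr6 over the pups were Adora2a (r = 0.971), the adenosine receptor of striatal neurons, Ppp1r1b (r = 0.971), which encodes DARPP-32, and Drd1 (r = 0.960). With the striatal score as a covariate the log2 fold change of Htr6 in IUO against PNO was 0.26 (SE 0.17, edgeR adjusted p = 0.446) in place of 0.94, and in IUO against SAL 0.15 (SE 0.17, edgeR adjusted p = 0.898) in place of 0.75. The part of the striatal markers in the Htr6 difference was not tested beyond this.

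Htr7 followed the thalamic markers, with r = 0.839 and rho = 0.853 (permutation p = 1e-05, the smallest possible, adjusted p = 0.00036). Without the 2 farthest pups r was 0.839, and within SAL, PNO and IUO it was 0.792, 0.945 and 0.851. IUO replicate 6 had the most Htr7, at 17.4 CPM, and 45.8 TPM of the thalamic marker Tcf7l2, beside a median of 9.52 TPM over all pups. Genes most like Htr7 were Hap1 (r = 0.865), Gprasp1 (r = 0.860) and Elp2 (r = 0.849).

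For Htr2a, r with the cortical excitatory score was 0.638 and rho 0.664 (permutation p adjusted over 72 relations, 0.0416), and within the groups r was 0.620, 0.503 and 0.700. Without the 2 farthest pups r was 0.660. After taking deviations from the group means it was 0.600 and no longer passed (adjusted permutation p = 0.165). Htr2a fell with the thalamic score, at r = -0.683 and rho = -0.761 (adjusted permutation p = 0.0242), with -0.918, -0.678 and -0.612 within the groups and -0.709 without the 2 farthest pups. This relation also passed after centring on the group means (r = -0.724, adjusted permutation p = 0.00936). For Htr2c, r with the cortical score was -0.592 and rho -0.569 (adjusted permutation p = 0.0641), which missed the threshold over all pups. Within SAL, PNO and IUO it was -0.887, -0.825 and -0.883, and after taking deviations from the group means r was -0.862 with an adjusted permutation p of 0.0024. With the thalamic score r of Htr2c was 0.596 and rho 0.614 (adjusted permutation p = 0.0641), and within the groups r was 0.854, 0.825 and 0.243. After centring it was 0.663 and still missed the threshold (adjusted permutation p = 0.0576). Although 5-HT2C is known from choroid plexus, r of Htr2c with the choroid plexus score was 0.296 and rho 0.302 (permutation p = 0.230, adjusted p = 0.502), with 0.715, 0.284 and 0.196 within the groups. PNO replicate 1, with the most Ttr (2656 TPM), and IUO replicate 2, with 90.6 TPM of Ttr, both were among the 4 pups with the most Htr2c. Genes most like Htr2a were Enc1 (r = 0.948), Actn4 (r = 0.919) and Ipo13 (r = 0.918), and those most like Htr2c were Klhl13 (r = 0.902), B3galt5 (r = 0.880) and Epb41l4a (r = 0.878).

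**Figure D3:**
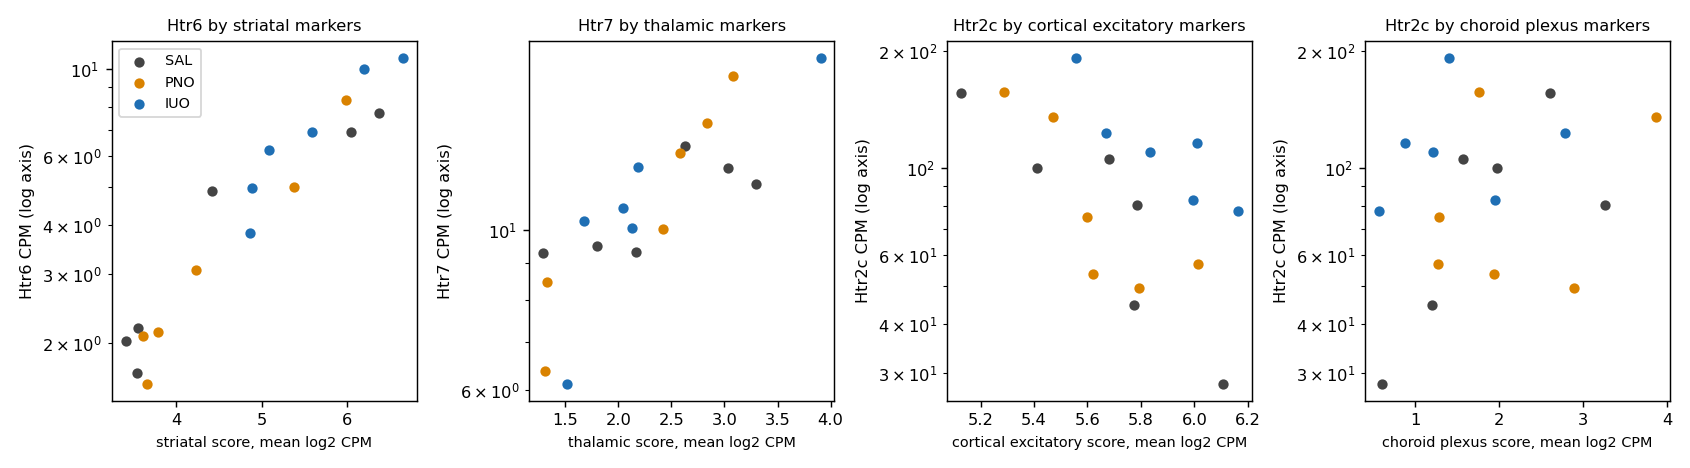
CPM of Htr6, Htr7 and Htr2c on log axes against marker scores (mean log2 CPM of striatal, thalamic, cortical excitatory and choroid plexus markers), 1 point per pup and coloured by group. Htr6 rises with the striatal score (r = 0.962) and Htr7 with the thalamic score (r = 0.839), while for Htr2c r is -0.592 with the cortical score and 0.296 with the choroid plexus score.

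Of the other relations, that of Htr1d with the striatal score passed, at r = 0.643 and rho = 0.664 (adjusted permutation p = 0.0416), with r = 0.503 without the 2 farthest pups and 0.583, 0.669 and 0.493 within the groups. After taking deviations from the group means it was 0.588 and no longer passed (adjusted permutation p = 0.135). Htr3a, a gene of interneurons from the caudal ganglionic eminence, had r = -0.330 and rho = -0.321 with the score of such interneurons (permutation p = 0.182, adjusted p = 0.502). With the serotonin neuron score, Htr2a (r = -0.810), Htr1b (r = -0.706) and Htr6 (r = -0.667) passed by r (adjusted permutation p = 0.00096, 0.0207 and 0.0219). By rho, Htr1b (-0.744) and Htr1f (-0.676) passed (adjusted permutation p = 0.00954 and 0.0366), but Htr2a and Htr6 did not. The 3 libraries form a cluster apart from the others, so r over all pups may lean on them. Within IUO, which holds none of them, r of Htr2a, Htr1b and Htr6 was -0.580, -0.574 and 0.364. After centring, Htr2a alone passed (adjusted permutation p = 0.0045).

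Receptor genes were also compared with each other over the 18 pups, in 36 pairs. Htr1a and Htr7 had the closest relation, with r = 0.767 and rho = 0.719 (adjusted permutation p = 0.00504) and r = 0.716 without the 2 farthest pups. Within SAL it was 0.168, within PNO 0.976 and within IUO 0.719, so that it did not hold within SAL. Htr1b was positively related to Htr1f (r = 0.642, rho = 0.740), Htr6 (r = 0.640, rho = 0.662), Htr1d (r = 0.613, rho = 0.763) and Htr2a (r = 0.592, rho = 0.608), with adjusted permutation p-values between 0.0437 and 0.0495. Without the 2 farthest pups these were 0.797, 0.454, 0.666 and 0.528, and the relation with Htr6 was -0.222 within IUO. Htr1d with Htr2c (r = 0.624, rho = 0.523) and Htr1f with Htr2a (r = 0.605, rho = 0.602) also passed by r, each with an adjusted permutation p of 0.0437, but the rho of Htr1d with Htr2c did not (adjusted permutation p = 0.0829). Htr1d with Htr2c dropped to r = 0.373 without the 2 farthest pups and so rests on them. By rho alone, Htr1d passed with Htr6 (rho = 0.655, adjusted permutation p = 0.0304) and Htr1f (rho = 0.618, adjusted permutation p = 0.0380), Htr2c with Htr3a (rho = 0.604) and Htr7 (rho = 0.598), both at an adjusted permutation p of 0.0380, and Htr1f with Htr6 (rho = 0.573, adjusted permutation p = 0.0472). After taking deviations from group means, 1 of the 36 pairs passed, Htr1a with Htr7 (r = 0.769, adjusted permutation p = 0.0486).

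The nearest genes of the remaining members were noted in the same way. They were Zfp41, Pygb and Clcn5 for Htr1a (r = 0.905, 0.894 and 0.891) and Stim2, Rasgef1a and Frem2 for Htr1b (r = 0.940, 0.910 and 0.892). For Htr1d they were Rps6ka5, Slc35f3 and Mpp7 (r = 0.867, 0.821 and 0.817), for Htr1f Cnot3, Igsf11 and Pxylp1 (r = 0.856, 0.848 and 0.833), and for Htr3a Scn11a, Lrpap1 and Myom3 (r = 0.857, 0.835 and 0.790). Each r is over 18 pups and was picked as the highest of the 15703 genes tested.

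Other genes of serotonin signalling were taken from lists set by role. Of 42 genes (4 other receptors, 13 of synthesis, transport and breakdown, 24 that couple to, edit, bind or scaffold the receptors, and Fev, a transcription factor gene of serotonin neurons), 38 were tested, and 0 passed an adjusted p of 0.05 in edgeR in any comparison. In IUO against PNO, DESeq2 put 3 past it (Aldh2 higher, Htr5b and Tph2 lower), and limma-voom put 7 (Aldh2, Arrb1, Gnai1 and Gnal higher, Htr5b, Pts and Tph2 lower), beside the 2.78% and 12.9% of all genes given above. In the other comparisons both gave 0. At an unadjusted p of 0.05, edgeR gave 1 higher and 0 lower in PNO against SAL, 1 higher and 3 lower in IUO against SAL, and 3 higher and 5 lower in IUO against PNO. Beside these, 1.89% and 2.60%, 3.02% and 3.87%, and 6.14% and 9.14% of all genes were past that threshold as higher and lower.

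Htr5b, a receptor gene outside the 10, was among those with a lower value in IUO. Its TPM was 0.620, 4.30, 0.480, 5.74, 0.150 and 2.0 in SAL replicates 1 to 6, 2.15, 1.75, 0.270, 3.55, 4.02 and 5.87 in PNO replicates 1 to 6, and 0.240, 0.640, 0.690, 0.320, 0.390 and 0.770 in IUO replicates 1 to 6. IUO pups were all at 0.770 TPM or less, but 3 SAL pups and 1 PNO pup were as low. edgeR gave -2.59 (SE 0.76, adjusted p = 0.135) in IUO against PNO and -2.20 (SE 0.76, adjusted p = 0.530) in IUO against SAL. Without the 3 libraries that carry serotonin neuron transcripts these were -1.98 (edgeR adjusted p = 0.386) and -1.50 (edgeR adjusted p = 0.941). With DESeq2 the difference between IUO and PNO was -2.61 with an adjusted p of 0.0181. The 5 pups with the most Htr5b (SAL replicates 2 and 4 and PNO replicates 4, 5 and 6, at 5.11 to 9.26 CPM) were the 5 with the most Gata3, and the other 13 were at 2.74 CPM or less. Gata3 was chosen after its values were seen. In SAL replicate 2 and PNO replicate 5, Tph2 was at 4.49 and 3.29 TPM and Slc6a4 at 3.98 and 1.01 TPM, far below the 3 libraries. With the striatal score as a covariate, Htr5b was at -1.24 (SE 0.65, edgeR adjusted p = 0.357) in IUO against PNO and -0.74 (SE 0.66, edgeR adjusted p = 0.866) in IUO against SAL. With the serotonin neuron score as a covariate it was at -1.60 (SE 0.60, edgeR adjusted p = 0.331) and -1.06 (SE 0.62, edgeR adjusted p = 0.859). Against SAL, Htr5b was past the unadjusted threshold in the fit of all pups but not without the 3 libraries or with either score. It also missed it there with limma-voom (-1.45, adjusted p = 0.384) and with the replicate block (-1.62, edgeR adjusted p = 0.678). Against PNO, Htr5b kept that threshold with these 2 settings and lost it with the striatal score. Htr5a, the other receptor of this class, had log2 fold changes of -0.23 (SE 0.25, adjusted p = 0.914), 0.14 (SE 0.25, adjusted p = 0.996) and 0.37 (SE 0.25, adjusted p = 0.495) in edgeR. Htr2b and Htr3b were counted 0 to 2 and 0 to 3 times per pup and were not tested.

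Among the synthesis and transport genes, Tph2 had edgeR log2 fold changes of -3.14 (SE 1.01, adjusted p = 0.166) in IUO against PNO and -2.76 (SE 1.00, adjusted p = 0.561) in IUO against SAL. Slc6a4 had -4.18 (SE 1.65, adjusted p = 0.244) and -4.08 (SE 1.64, adjusted p = 0.647). The 3 libraries named above had been singled out for these transcripts, so the values without them are a description with no test. Without them Tph2 was at -0.88 and -0.66, and Slc6a4 at 1.23 and -0.58. With the striatal score as a covariate neither gene was past the unadjusted threshold in either comparison, with Tph2 at -1.57 (SE 1.01, edgeR adjusted p = 0.445) and -1.20 (SE 0.98, edgeR adjusted p = 0.848), and Slc6a4 at -0.13 (SE 1.85, edgeR adjusted p = 0.979) and -0.05 (SE 1.89, edgeR adjusted p = 0.998). With limma-voom Tph2 was at -1.08 (adjusted p = 0.535) in IUO against SAL and also not past it. Slc6a4 was past that threshold in neither comparison with limma-voom. IUO against PNO gave -2.49 (limma-voom adjusted p = 0.257) and IUO against SAL -1.02 (limma-voom adjusted p = 0.779). With the replicate block Slc6a4 also missed it in both (edgeR adjusted p = 0.498 and 0.777), while Tph2 kept it in both. With DESeq2 both genes were past it in both comparisons. Pts, an enzyme that makes the cofactor of tryptophan hydroxylase, had 0.29 (SE 0.11, adjusted p = 0.912) in PNO against SAL and -0.32 (SE 0.11, adjusted p = 0.185) in IUO against PNO in edgeR, and 0.26 (adjusted p = 0.915) and -0.23 (adjusted p = 0.490) without the 3 libraries. Spr, which acts in the same pathway, had -0.27 (SE 0.13, edgeR adjusted p = 0.327) in IUO against PNO, and the same -0.27 (SE 0.15, adjusted p = 0.560) without the 3 libraries. Aldh2, which oxidizes the aldehyde formed from serotonin by monoamine oxidase, had 0.41 (SE 0.12, adjusted p = 0.133) in IUO against PNO and 0.31 (SE 0.12, adjusted p = 0.611) in IUO against SAL in edgeR, and 0.39 (adjusted p = 0.389) and 0.28 (adjusted p = 0.950) without the 3 libraries.

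Among the coupling partners, Gnal, the Gs-like protein of striatal neurons, had an edgeR log2 fold change of 1.01 (SE 0.41, adjusted p = 0.253) in IUO against PNO. With the striatal score as a covariate it was 0.39 (SE 0.19, edgeR adjusted p = 0.330), and without the 3 libraries 0.83 (SE 0.45, edgeR adjusted p = 0.540). Pts, Spr and Gnal in IUO against PNO, and Aldh2 and Htr5b in IUO against SAL, were no longer past the unadjusted threshold without those libraries. With the striatal score Spr and Gnal in IUO against PNO and Aldh2 in IUO against SAL lost it too. Gnai2, a Gi protein, had 0.17 (SE 0.06, edgeR adjusted p = 0.222) in the same comparison and 0.20 (SE 0.07, edgeR adjusted p = 0.357) without the 3 libraries. Fold changes of the 24 coupling and scaffold genes tested were above 0 for 5 in PNO against SAL, 16 in IUO against SAL and 17 in IUO against PNO, with medians of -0.09, 0.08 and 0.17. Those of the 12 synthesis, transport and breakdown genes tested were above 0 for 9, 4 and 3, with medians of 0.08, -0.12 and -0.29. Over all genes tested, 50.8%, 48% and 49.9% were above 0, and the medians were 0.00, -0.01 and 0.00.

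**Figure D4:**
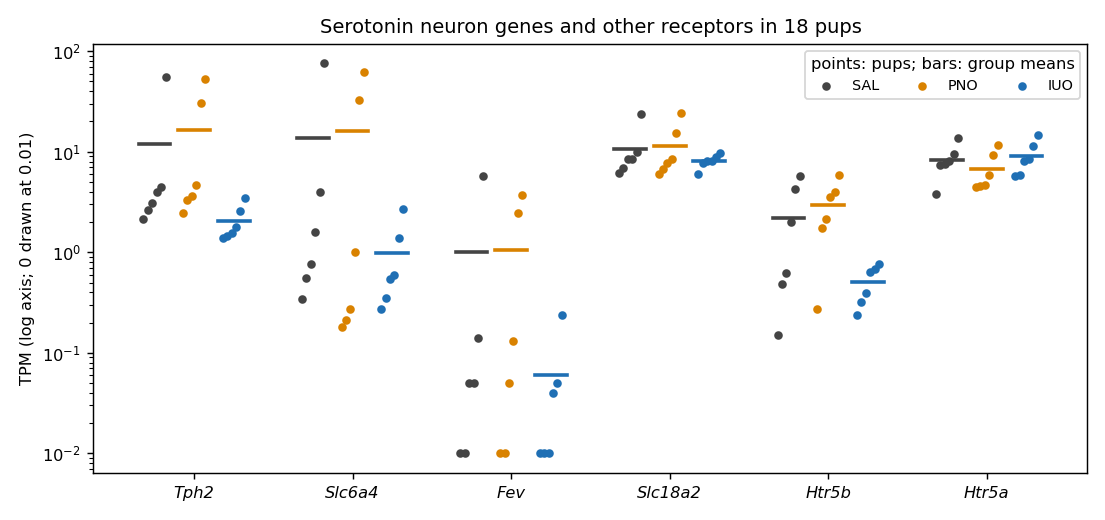
TPM on a log axis (0 drawn at 0.01) of the serotonin neuron genes Tph2, Slc6a4, Fev and Slc18a2 and of the receptors Htr5b and Htr5a, with points for pups and bars for group means. In SAL 1 pup and in PNO 2 pups stand far above the others for Tph2 and Slc6a4, and the IUO pups lie at 0.240 to 0.770 TPM for Htr5b.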

How the data were processed

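Members were found by gene symbol in 18 tables, 1 per pup. The members, gene lists and tests were chosen with earlier results of these data known. The expected count that the authors deposited per gene shares out ambiguous reads and is not normalized. Their deposited TPM and FPKM take account of transcript length and depth. The aligner, quantifier and genome build are not given in the sources used here. Expected counts were rounded (all 180 values of the members were whole already) and compared by edgeR 4.0.16 under R 4.3.3 (TMM, filterByExpr by group, glmQLFit and glmQLFTest, two-sided, 1 model over 18 pups), with Benjamini-Hochberg adjustment over 15703 genes. Log2 CPM used a prior count of 2. TPM was used only to compare genes, with FPKM as the alternative. All reads came from 1 flow cell.

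Named were all 10 members, pathway genes with an unadjusted p under 0.05 in any comparison, the other serotonin receptors, Tph2 and Slc6a4, and for each tested member the 3 genes with the highest Pearson r. Genes named outside this rule were chosen after their values were seen: Ttr, Tcf7l2, Slc17a7, Gata3, Fev and Slc18a2 as markers, Arrb1 and Gnai1 for their limma-voom calls, and Ddc, Gch1, Slc18a2, Plcb4, Cc2d1a, Adarb1 and Mpdz for a pup that stood apart. Gnas, listed under 2 identifiers, was left out. Alternatives were other size factors and filters, DESeq2 1.42.0, limma 3.58.1, a fit on 12 pups, marker scores as covariates, a replicate block and each pup left out. Leaving out the 3 libraries with serotonin neuron transcripts, and their score as a covariate, were chosen after seeing the data. On data simulated for IUO against SAL over 15570 genes, 47% of 1.5-fold and 74% of 2-fold changes were recovered and 3.97% of calls were false. The changed genes were drawn at random above a count limit, so these shares describe genes in general. The tested receptor genes had more within-group spread than most, from the 73.4 to the 96.1 percentile, and their own recovery was not tested. In 45 pairs of pups of a group, chi-square per degree of freedom was 11.1 to 186, so every pup was counted once. Python 3.11.15, scipy 1.17.1 and matplotlib 3.10.9 were used.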

Additional observations from a re-analysis of the deposited data

Results flagged for a closer look

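Of 141 sets of 6 pups (9 tested receptor genes and 38 pathway genes in each of 3 groups), 10 held a pup whose gap to its nearest neighbour was too large a share of the group's range by Dixon's 95% limit. Chance gives about 1 in 20 sets.

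For receptor genes, Htr1b in SAL replicate 4 was at 2.02 log2 CPM with the nearest pup at 2.69, and Htr1f in IUO replicate 6 was at -0.60 with the nearest at 0.32. SAL replicate 4 was high in Tph2 (6.71, nearest 2.81), Ddc (5.59, nearest 3.25), Gch1 (2.95, nearest 0.78) and Slc18a2 (5.67, nearest 4.11), all of which act in the synthesis or storage of serotonin. IUO replicate 6 was high in Plcb4 (5.76, nearest 5.45) and Cc2d1a (6.87, nearest 6.75). SAL replicate 6 was high in Adarb1 (7.85, nearest 7.47), which edits receptor transcripts, and in Mpdz (6.22, nearest 5.98).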

How the results depend on the processing

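The count of receptor genes past an adjusted p of 0.05 was 0 in all 3 comparisons under every alternative but limma-voom, which gave 1 in IUO against PNO (Htr6, 1.30). At an unadjusted p, the count in IUO against PNO was 1, Htr6, without library size normalization, without a filter, with DESeq2, on log2(TPM + 0.1), with only the 12 pups compared and with the replicate block, where 14.4%, 12.1%, 16.4%, 12.9%, 16.3% and 16.5% of all genes passed. It was 2 with the choroid plexus score as a covariate (Htr6 and Htr1d), beside 13.7% of all genes, and 3 with limma-voom (Htr6, Htr1b and Htr2a), where 34% of all genes passed. In IUO against SAL it was 1, Htr6, with limma-voom, the replicate block and the choroid plexus score, beside 17.3%, 7.44% and 7.09% of all genes. The cause was not tested.

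Leaving out 1 pup gave 0 receptor genes at an adjusted p in each comparison. At an unadjusted p it gave 0 to 2 in IUO against PNO (Htr6 and Htr1b without PNO replicate 1, and Htr6 alone without PNO replicate 3, IUO replicate 5 or IUO replicate 6, beside 21.4%, 13.2%, 11.4% and 14.5% of all genes). It gave 0 to 1 in IUO against SAL (Htr6 without SAL replicate 1, beside 7.20% of all genes) and 0 to 1 in PNO against SAL. The last was Htr4 without PNO replicate 2, 3 or 4, where it passed the filter on low counts and 3.21%, 3.96% and 3.57% of all genes were past the threshold (edgeR log2 fold change 1.34 to 1.38, smallest adjusted p 0.996). Of the pathway genes, 6 to 13 were past an unadjusted p in IUO against PNO in place of 8 (13 without PNO replicate 1, beside 21.4% of all genes). In IUO against SAL it was 1 to 5 in place of 4 (1 without SAL replicate 4, beside 5.57%), and in PNO against SAL 1 to 3 in place of 1 (3 without SAL replicate 4 or PNO replicate 1, beside 8.18% and 8.99%).

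The pathway count in IUO against PNO was 21 with limma-voom, again beside 34% of all genes. In IUO against SAL it was 1 on log2(TPM + 0.1), 2 with the striatal score and 1 with the serotonin neuron score as covariates, beside 5.58%, 7.58% and 6.56% of all genes. Without the 3 libraries that carry serotonin neuron transcripts it was 2 in PNO against SAL, 1 in IUO against SAL and 4 in IUO against PNO, beside 4.42%, 5.29% and 10.6% of all genes. With deviations from the group means, 5 relations with marker scores passed in place of 8, and 1 in place of 7 between receptor genes. The 5 were 4 of the 8 and Htr2c with the cortical score. Htr2a with the cortical score, Htr1d with the striatal score and 2 of the 3 relations with the serotonin neuron score were lost.

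Correlations of the deviations of pups with the same replicate number averaged 0.23 between PNO and SAL, -0.03 for IUO with SAL and 0.06 for IUO with PNO. They were over 0.1 in 4, 1 and 3 of 6 pairs and never in all, so the numbers were not taken to pair pups. With the replicate block, Htr6 was 1.14 (SE 0.33, edgeR adjusted p = 0.142) in IUO against PNO and 0.93 (SE 0.33, edgeR adjusted p = 0.537) in IUO against SAL. Of the log2 fold changes of single receptor genes, 322 of 324 with a pup left out and 345 of 348 under other settings were counted as unchanged. Such a value kept its side of an adjusted p of 0.05, and its sign either held or turned with a move below the SE. A value that kept its sign was counted so whatever its size. Htr6 in IUO against PNO was one, at 0.94 and, with the striatal score, 0.26. Counts of 2 to 47 limit Htr4 and of 3 to 39 limit Htr1d.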

Other observations

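Myelin genes, which are not part of serotonin signalling, differed in level between pups. Summed TPM of 8 markers of myelinating oligodendrocytes ran from 1452 to 5676 in SAL (median 4585), 2224 to 11500 in PNO (median 6819) and 1721 to 3955 in IUO (median 2151). r of the oligodendrocyte score with the 9 tested receptor genes gave no relation past an adjusted permutation p of 0.05.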
